A study of Arabidopsis thaliana with 8 samples.

Results

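A set of 146 Arabidopsis thaliana loci, known in the array annotation by locus code alone, stood higher in fh1-1 and in SMIFH2-treated seedlings. The fh1-1 line is a formin mutant and SMIFH2 is a formin inhibitor, and each group was set against its own control. The loci were chosen among 14750 nuclear loci with no other symbol, out of 16554 genes measured. A locus was taken when its mean log2 level was at least 1.5 higher in fh1-1 than in its wild-type control on solid medium, at least 1.5 higher with SMIFH2 than in the liquid control, and at least 4 in fh1-1. The formin loci AT2G43800 and AT5G48360 were left out. The loci were chosen by these measured differences and levels, so their rises are a description and carry no test. A difference of 1 on the log2 scale is a doubling.

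Affymetrix arrays were hybridised with RNA from pools of about 120 whole 7-day-old seedlings of the Columbia background, with 2 pools and 2 arrays in each of 4 groups. The first group, the solid control, was a backcrossed wild-type sister of the mutant line, kept for 7 days on solid MS medium with 16 h of light and 8 h of darkness a day. The second was the fh1-1 line under the same conditions, a single mutant line. The third, the liquid control, was the wild-type sister line moved after 6 days on solid medium to shaken liquid MS medium in continuous light for 1 day. The fourth was the same with 20 uM SMIFH2 in the liquid. The sources used here do not say whether solvent alone was added to the liquid control.

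Formins are proteins that start actin filaments and stay at their growing ends, and several plant formins also bind microtubules. FH1 is a membrane-anchored formin of Arabidopsis, and SMIFH2 is a small molecule that blocks the FH2 domain through which formins act on actin. Most of the 146 loci have no other name in the RefSeq list used here, so they are identified by locus code and no role is given. Names or roles described elsewhere were not used. Of the 146 loci, all listed in RefSeq as protein-coding, 3 have another name among their RefSeq synonyms. These are CURT1A and CURT1C, members of the family of small membrane proteins that bend thylakoids at the grana margins, and FKBP65, also called ROF2, a peptidyl-prolyl isomerase known from the heat response.

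No probe set was listed for FH1, so its transcript could not serve as a check of the mutant label. The 8 arrays had medians of 3.89 to 3.96, and across all genes r between the 2 arrays of a group was 0.988 to 0.993. Between fh1-1 arrays and SMIFH2 arrays r was 0.990, within that range, although they differ in genotype, agent, medium and light. The labels name no other factor that these 4 arrays share, and whether one bears on the shared rises was not tested. Between solid and liquid control arrays r was 0.977 to 0.981. Of 16554 genes, 24 differed between SMIFH2 in liquid and fh1-1 on solid medium, and 779 between the liquid and solid controls, at an adjusted p under 0.05 in limma.

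In fh1-1 the 146 loci were higher by a median of 2.50 on the log2 scale, with a range of 1.53 to 5.17. With SMIFH2 they were higher by a median of 1.93, from 1.51 to 4.68. The median standard error of either difference was 0.19 (n = 2 arrays per group). Over all genes tested the medians were -0.05 and -0.02. All 146 loci passed limma's threshold in both comparisons, where 10.9% of all genes were higher in fh1-1 and 7.78% were higher with SMIFH2, and nothing is read from this, since the rule used both comparisons.

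The rule selected 0.99% of the locus-code genes, and 28 of the 1804 genes with another symbol, or 1.55%, met the same 3 thresholds. A further 172 locus-code genes met the fh1-1 threshold and the minimum level but not the SMIFH2 threshold, and 36 the reverse. In the opposite direction, 60 loci were lower by at least 1.5 in both comparisons. Of all locus-code genes, 0 moved by at least 1.5 in opposite directions in the 2 comparisons. Just inside the rule were AT3G10060, with differences of 1.54 in fh1-1 and 1.51 with SMIFH2, AT4G33500 with 2.35 and 1.52, and AT5G44680 with 2.93 and 1.52. Just outside were AT2G21340 with 1.68 and 1.49, AT2G25735 with 1.49 and 1.66, and AT4G00165 with 1.51 and 1.48.

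**Figure D1:**
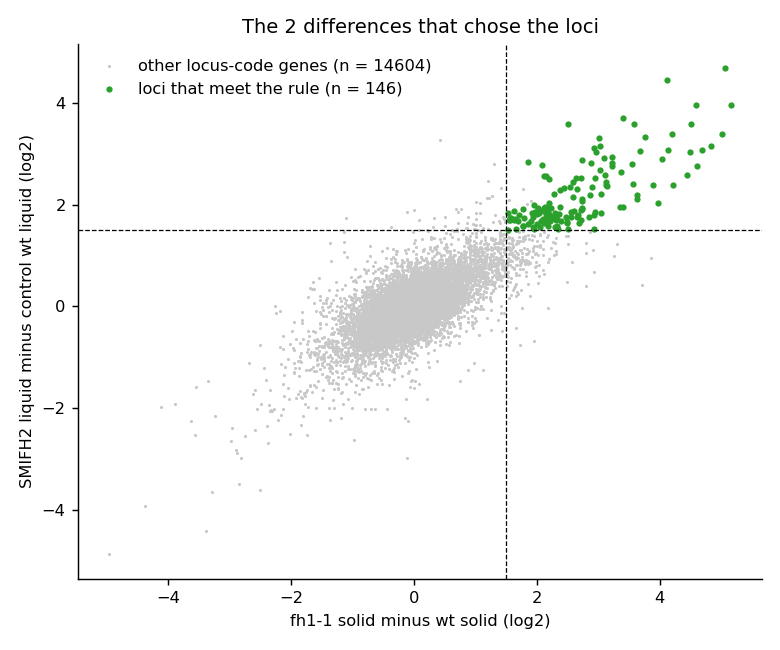
Each point is a locus-code gene, with its log2 difference in fh1-1 on solid medium on the horizontal axis and with SMIFH2 in liquid on the vertical axis. Dashed lines mark 1.5 on both axes, and the 146 chosen loci lie above and to the right of both.

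The loci covered a wide range of levels. Their median was 4.05 and 4.13 in the 2 arrays of the solid control and 4.59 and 4.64 in the liquid control. It was 6.84 and 6.76 in fh1-1 and 6.72 and 6.74 with SMIFH2. For each of the 146 loci, all 4 control arrays lay below all 4 arrays of fh1-1 and SMIFH2, a separation shown by 12.7% of all genes. The rule sets a minimum for both differences, which favours such a separation, so nothing is read from this. In 13 loci the mean in the solid control was under the 25th percentile of every array, which lay at 2.13 to 2.24. For 8 of these the liquid control was under it too, and whether a level this low is above background is not known. Arrays of 1 group differed by a median of 0.25 per locus in the solid control, 0.17 in fh1-1, 0.30 in the liquid control and 0.16 with SMIFH2.

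**Figure D2:**
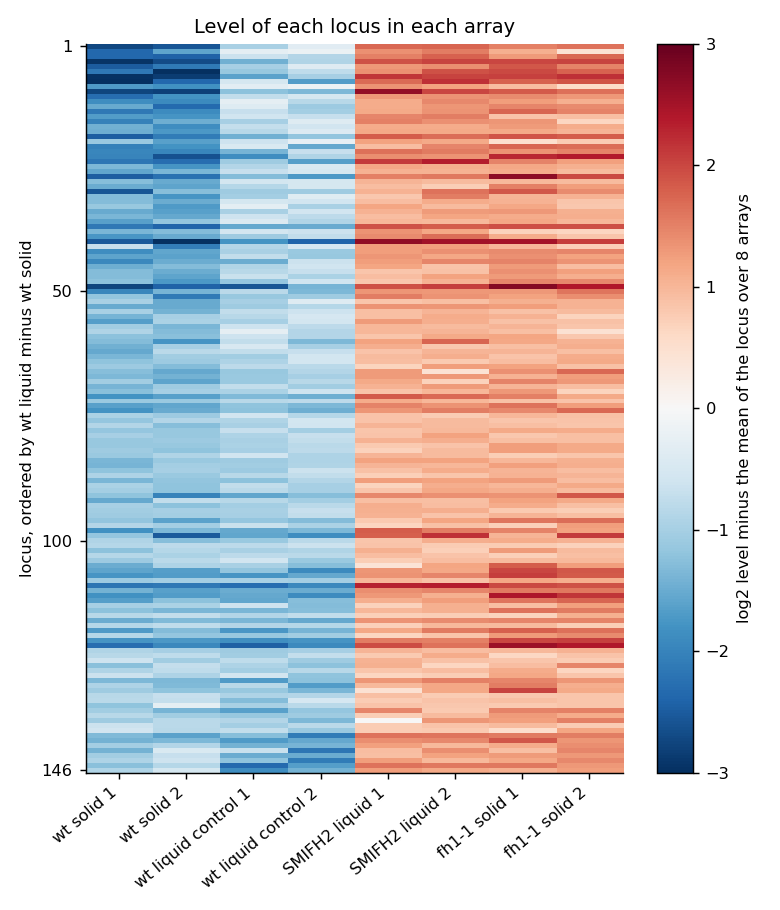
Rows are the 146 loci, ordered from the largest to the smallest difference of liquid control minus the solid control, and columns are the 8 arrays. Colour is the log2 level minus the mean of the locus over the 8 arrays. The 4 control arrays are below the mean and the 4 arrays of fh1-1 and SMIFH2 above it, and the uppermost rows are lower on solid medium than in the liquid control.

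The 12 loci with the largest sum of both differences were higher by 4.13 to 5.17 in fh1-1 and by 2.76 to 4.68 with SMIFH2. AT1G70820 had the largest sum. It stood at 3.18 and 2.66 in the solid control, 8.20 and 7.76 in fh1-1, 3.91 and 3.30 in the liquid control, and 8.36 and 8.21 with SMIFH2. It was thus low in both controls and high in all 4 other arrays, with differences of 5.06 and 4.68. AT5G33370 had the largest difference in fh1-1, 5.17, from 2.49 and 2.81 to 8.00 and 7.64. In liquid it went from 2.67 and 3.84 to 7.14 and 7.30, by 3.96 ± 0.32 (SE). Its liquid control arrays lay far apart.

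AT2G23840 and AT1G06100 were at nearly the same low level in both controls. AT2G23840 had 2.31 and 2.36 on solid medium and 2.22 and 2.58 in the liquid control, against 6.5 and 6.42 in fh1-1 and 6.83 and 6.87 with SMIFH2. AT1G06100 had 2.43 and 2.78 on solid medium and 2.27 and 2.80 in liquid, against 7.28 and 7.12 in fh1-1 and 6.66 and 6.34 with SMIFH2. The 2 controls overlapped for both loci. AT4G19530 and AT5G48490 instead had separate controls. For AT4G19530 these were 3.37 and 3.49 on solid medium and 4.72 and 5.34 in liquid, below 8.38 and 8.53 in fh1-1 and 8.47 and 8.37 with SMIFH2. AT5G48490 had 3.50 and 3.74 on solid medium and 4.98 and 5.52 in liquid, below 8.43 and 8.47 in fh1-1 and 8.34 and 8.47 with SMIFH2. Their fh1-1 and SMIFH2 arrays overlapped.

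AT4G13575 stood at 1.74 and 1.68 in the solid control, a level that may be at background. It reached 6.32 and 6.13 in fh1-1, 3.26 and 3.15 in the liquid control, and 7.13 and 6.48 with SMIFH2. AT3G48420 was at 5.43 and 5.17 on solid medium, 9.51 and 9.52 in fh1-1, 6.03 and 6.06 in the liquid control, and 9.49 and 9.40 with SMIFH2. Its fh1-1 arrays were just above its SMIFH2 arrays, and its liquid control was above its solid control. The remaining 4 loci had differences of 4.70 and 3.07 (AT3G44970), 4.61 and 2.76 (AT3G46490), 4.50 and 3.04 (AT5G24210), and 4.14 and 3.07 (AT1G51110) in fh1-1 and with SMIFH2.

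**Figure D3:**
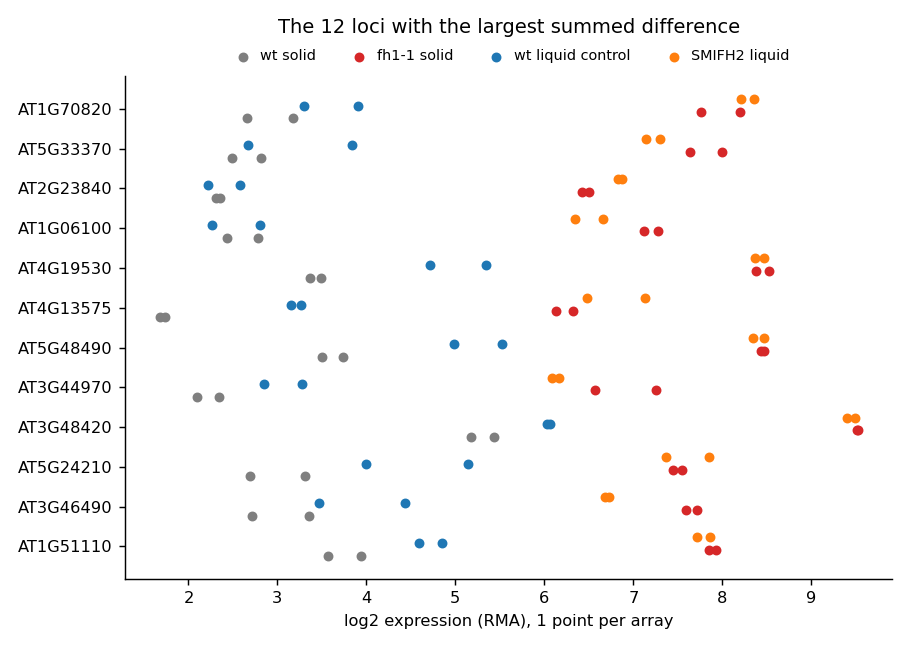
Log2 level in each of the 8 arrays for the 12 loci with the largest sum of both differences, 1 point per array, coloured by group. In each locus the points of fh1-1 and SMIFH2 lie to the right of both controls, and in 9 of the 12, among them AT4G19530, AT4G13575 and AT5G48490, both liquid control points lie to the right of both solid control points.

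CURT1A (AT4G01150), which shapes thylakoid membranes, was among the 6 loci with the highest mean signal. Its arrays gave 7.29 and 7.13 on solid medium, 9.78 and 9.75 in fh1-1, 8.04 and 7.88 in the liquid control, and 9.60 and 9.84 with SMIFH2. CURT1C (AT1G52220), a relative, had 4.61 and 4.81 on solid medium, 7.29 and 7.13 in fh1-1, 5.48 and 5.65 in the liquid control, and 7.22 and 7.22 with SMIFH2. Both loci showed the same order, with the solid control lowest, the liquid control between, and fh1-1 and SMIFH2 highest and overlapping each other. The differences were 2.56 ± 0.16 in fh1-1 and 1.76 ± 0.16 with SMIFH2 for CURT1A, and 2.50 ± 0.15 and 1.65 ± 0.15 for CURT1C. Another relative with a probe set, CURT1D (AT4G38100), is no member of the set. It changed by -0.07 ± 0.17 in fh1-1 and by 0.22 ± 0.17 with SMIFH2, and did not pass limma's test in either (adjusted p = 0.82 and 0.47). CURT1C, CURT1D and FKBP65 were picked because RefSeq names them, after their values had been seen.

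FKBP65 (AT5G48570), the isomerase known from the heat response, stood at 3.30 and 3.37 on solid medium and 3.41 and 3.37 in the liquid control. It reached 5.55 and 5.48 in fh1-1 and 5.38 and 5.28 with SMIFH2. Its controls were at nearly the same level, and its differences were 2.18 ± 0.14 and 1.94 ± 0.14. The others of those 6 were AT5G52970, AT5G05200, AT2G42220, AT1G16080 and AT1G21500, with means over the 8 arrays of 8.32 to 9.11. AT5G52970 stood at 7.59 and 7.49 on solid medium, 10.40 and 10.17 in fh1-1, 8.14 and 8.53 in the liquid control, and 10.15 and 10.39 with SMIFH2. AT5G05200 stood at 7.24 and 7.49 on solid medium and 7.53 and 7.67 in liquid, against 9.61 and 9.68 in fh1-1 and 9.81 and 9.82 with SMIFH2.

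The comparison of the liquid with the solid control was not used to choose the loci, although both control groups enter the differences that did. How far the choice itself shifts this comparison was not tested, so the counts are given as a description. The loci also had to reach 4 in fh1-1, where the median over all genes was 3.69. The shares of all genes thus include many genes at lower levels. Medium, shaking, transfer and light differ together between the controls and cannot be told apart. Of the 146 loci, 32 were higher in the liquid control and 1 was lower in limma at an adjusted p under 0.05, against 2.22% of all genes higher and 2.48% lower, or 4.71% in all. The 32 loci are 21.9% of the set. The median over the 146 loci was 0.31 and that over all genes was -0.03, and a locus had a median 95% interval, before adjustment, of 0.42 on either side. In 80 loci both liquid arrays were above both solid arrays, which 20.4% of all genes showed, and in 10 both were below, which 25.7% of all genes showed. The number that passed was 14 without array 2 of the solid control and 19 without array 2 of the liquid control. It was 13 with the 4 control arrays alone and 12 when every probe set of the array was tested.

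AT2G32870 rose the most from the solid to the liquid control, from 4.02 and 4.18 to 5.78 and 6.42, by 2.00 ± 0.20 (adjusted p = 0.00088 in limma). In fh1-1 it stood at 8.27 and 8.37, and with SMIFH2 at 8.47 and 8.49. AT1G18810 went from 2.45 and 3.23 to 4.52 and 4.62, by 1.73 ± 0.27 (adjusted p = 0.0063 in limma). For both, the liquid control lay between the solid control and the arrays of fh1-1 and SMIFH2 and overlapped none of them. AT5G48490 rose by 1.63 ± 0.19 and AT2G34620 by 1.63 ± 0.19, from 2.70 and 2.63 to 4.40 and 4.18 (adjusted p = 0.0019 and 0.0018 in limma). AT1G22690 rose by 1.62 ± 0.28, from 4.66 and 3.82 to 5.67 and 6.05 (adjusted p = 0.012). These 5 were the largest rises, and AT1G18810 narrowly missed the threshold over every probe set (0.052). AT1G22690 missed it over every probe set (0.068), without array 2 of the solid control (0.07) and without array 2 of the liquid control (0.067).

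The single locus that fell from the solid to the liquid control was AT5G12110, from 6.46 and 6.83 to 5.49 and 5.93, by 0.94 on the log2 scale (SE 0.19, adjusted p = 0.026 in limma). It reached 8.42 and 8.60 in fh1-1 and 8.60 and 8.49 with SMIFH2. It missed the threshold in 4 of 16 alternatives, without array 2 of the solid control (0.16), without array 1 of the liquid control (0.11), with the control arrays alone (0.091) and over every probe set (0.088). CURT1A was higher in liquid by 0.76 ± 0.16 (adjusted p = 0.025) and CURT1C by 0.86 ± 0.15 (adjusted p = 0.014) in limma. CURT1A missed the threshold without any single control array (0.054 to 0.14), with the control arrays alone (0.087) and over every probe set (0.07). CURT1C missed it without array 1 of the solid control (0.072), without array 2 of the liquid control (0.064), with the control arrays alone (0.064) and over every probe set (0.052). FKBP65 changed by 0.06 ± 0.14, with a 95% interval of -0.26 to 0.38, and did not pass. Of AT4G13575, AT4G19530 and AT4G04750, which rose by 1.5 ± 0.21, 1.60 ± 0.20 and 1.62 ± 0.23, none missed the threshold in any of 16 alternatives.

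The 32 loci that were higher in the liquid control had a median difference of 3.1 in fh1-1 and 1.96 with SMIFH2. The 113 loci that did not pass had medians of 2.29 and 1.92. The solid control enters both the sorting and the fh1-1 difference, so these medians are given as a description. In the first subset the median level was 7.70 in fh1-1 and 7.76 with SMIFH2, and in the second 6.68 and 6.56.

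The direct comparison of SMIFH2 in liquid with fh1-1 on solid medium was not used by the rule either. Genotype, agent, medium and light differ together in it and cannot be told apart. Of the 146 loci, 0 passed an adjusted p under 0.05 in limma, against 0.145% of all genes. At an unadjusted p under 0.05, 10 loci, or 6.85%, were higher with SMIFH2, against 3.44% of all genes, and 19, or 13%, were lower, against 3.81%. The median difference over the loci was -0.04, and over all genes -0.02. The 2 group means lay within 0.5 of each other in 119 loci, or 81.5%, and in 95.3% of all genes. A locus had a median 95% interval, before adjustment, of 0.42 on either side and at most 1.02. Over all genes the smallest difference that passed was 0.95, and among the loci a difference of size 1.12 did not pass, so the count of 0 does not show that the levels were alike.

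The largest differences in that comparison went both ways. AT1G78450, picked after its values had been seen, stood at 6.06 and 5.77 in fh1-1 and at 4.92 and 4.68 with SMIFH2. It was lower with SMIFH2 by 1.12, with a 95% interval of -1.52 to -0.71 and the smallest adjusted p of the set, 0.074 in limma. Its arrays of the 2 groups did not overlap, and its controls were at 1.81 and 1.95 on solid medium and 2.08 and 1.73 in liquid. AT3G46490 stood at 7.59 and 7.71 in fh1-1 and at 6.73 and 6.68 with SMIFH2. It gave -0.95 (interval -1.61 to -0.28) and AT3G44970 -0.78 (-1.31 to -0.26), and neither passed (adjusted p = 0.51 and 0.50 in limma). Among loci higher with SMIFH2, AT1G15125 had the largest difference, from 7.70 and 7.43 in fh1-1 to 8.30 and 8.57, and it too was picked after its values had been seen. It gave 0.87 (0.40 to 1.34) and did not pass (adjusted p = 0.34 in limma). AT1G18810 gave 0.71 (0.11 to 1.30), which also did not pass (adjusted p = 0.60).

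**Figure D4:**
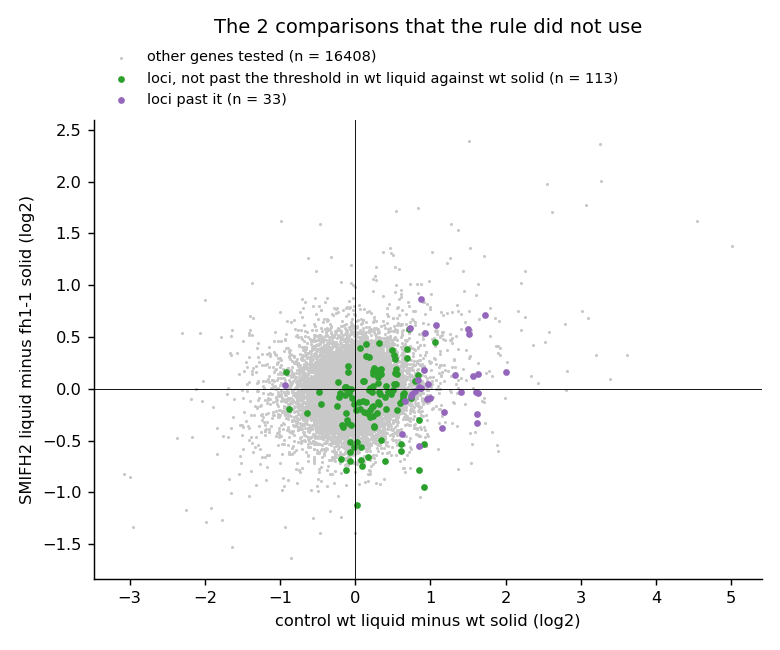
Each point is a gene, with its log2 difference of liquid control minus the solid control on the horizontal axis and of SMIFH2 in liquid minus fh1-1 on solid medium on the vertical axis. Grey points are the other genes tested. Of the chosen loci, 33 passed limma's threshold on the horizontal axis, 32 of them to the right of 0, and 0 passed on the vertical axis.

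The rise in fh1-1 was larger than that with SMIFH2 in 122 of the 146 loci and smaller in 24. The difference of the 2 effects, SMIFH2 minus fh1-1, had a median of -0.42 over the loci and 0.01 over all genes. It is made of the 2 differences that chose the loci, so it is given as a description. In limma 8 loci were past the threshold with the smaller effect under SMIFH2, where 0.387% of all genes were, and 0 with the larger one, where 0.356% were, and nothing is read from this. The difference of the effects equals the direct difference of SMIFH2 from fh1-1 minus that of the liquid from the solid control. All 8 loci are among the 32 that were higher in the liquid control, which by this sum is no second observation.

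AT4G04750 had the largest such difference, -1.95 ± 0.33 (SE). It went from 1.83 and 2.21 to 6.19 and 5.82 in fh1-1, and from 3.33 and 3.95 to 5.63 and 5.72 with SMIFH2. Its end levels thus lay close together, while its starting levels in the 2 controls did not. AT2G32870 gave -1.84 ± 0.29, AT5G48490 -1.68 ± 0.27, AT4G19530 -1.63 ± 0.29 and AT3G62550 -1.53 ± 0.26. AT3G62550 went from 3.55 and 3.81 to 7.44 and 7.19 in fh1-1, and from 5 and 4.67 to 6.83 and 7.05 with SMIFH2. The other 3 loci were AT2G34620, AT1G51805 and AT5G44680, at -1.49, -1.44 and -1.40, of which AT1G51805 falls outside the rule for naming loci and was named after its values had been seen. The number of loci past the threshold was 0 without either array of fh1-1, either array of SMIFH2 or array 2 of the solid control. It was 1 without array 1 of the solid control, 3 without array 2 of the liquid control, and 0 over every probe set.

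The loci were spread over all 5 chromosomes. They made up 1.04% of the locus-code genes measured on chromosome 1, 1.38% on chromosome 2, 0.726% on chromosome 3, 0.879% on chromosome 4 and 0.989% on chromosome 5. In the order of protein-coding genes in RefSeq, 2 pairs were direct neighbours. AT2G43550 and its neighbour AT2G43560 had differences of 2.91 and 2.12 in fh1-1 and of 2.35 and 1.63 with SMIFH2. In the other pair, AT5G54710 stood at 1.58 and 2.13 on solid medium and 4.89 and 4.31 in fh1-1, and AT5G54720 at 1.71 and 2.11 and at 5.2 and 5.06. Both were as low in the liquid control, at 2.10 and 1.80 and at 1.67 and 2.03. Including these pairs, there were 6 cases in which the next of the loci lay at most 5 protein-coding genes further on. Among these were AT2G29290, AT2G29310 and AT2G29360, named after their values had been seen, with differences of 3.05, 2.94 and 2.48 in fh1-1 and of 2.22, 1.86 and 1.77 with SMIFH2. AT2G29310 stood at 1.35 and 1.09 on solid medium and 1.47 and 1.75 in the liquid control, levels that may be at background. Of the 188 measured neighbours of the loci that are not in the set, 29, or 15.4%, were higher in fh1-1, against 10.9% of all genes. With SMIFH2 17, or 9.04%, were higher, against 7.78% of all genes. The median differences of the neighbours were 0.04 in fh1-1 and 0.08 with SMIFH2, against -0.05 and -0.02 over all genes. Whether neighbours differ from other genes was not tested.

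Photosynthesis genes were set beside the loci. From a list of 45 nuclear photosynthesis genes 11 were measured. All 11 have a symbol other than a locus code, so the rule could not take them whatever their levels. Of these genes LHB1B2, PSAN, PSBW and SBPASE reached the thresholds of the rule, and the others did not. Of the 11, 10 passed limma's threshold as higher in fh1-1, 8 with SMIFH2 and 6 in the liquid control against the solid control. Over all genes 10.9%, 7.78% and 2.22% did so. In these comparisons 0 of the 11 passed as lower. Their median differences were 1.75, 1.16 and 0.65, against -0.05, -0.02 and -0.03 over all genes. Earlier results of these data were known when the list was written, so it gives no independent support. With any 1 array left out, the 6 became 4. The genes of the list were not alike. PSBW, a subunit of photosystem II, gave 2.66 ± 0.15 in fh1-1, 1.59 ± 0.15 with SMIFH2 and 1.13 ± 0.15 in the liquid control. In the same order LHB1B2 gave 4.83, 1.54 and 3.38, and LHCB4.3 gave 0.08, 0.46 and -0.34 and passed in none. These genes were named after their values had been seen. In the direct comparison of SMIFH2 with fh1-1, 0 of the 11 passed limma's test, against 0.145% of all genes. Their median there was 0.01.

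Whole seedlings hold shoot and root, and a short list of marker genes was taken for each. The root markers, PYK10, BGLU21, BGLU22, JAL33, JAL34 and JAL22, are beta-glucosidases and jacalin lectins only, so neither list measures the share of an organ. Of the 8 shoot markers, 5 of which are also on the photosynthesis list, 7 were higher in fh1-1, 6 with SMIFH2 and 5 in the liquid control. Over all genes 10.9%, 7.78% and 2.22% were higher. The mean log2 level of the 8 was 6.86 to 6.87 on solid medium and 7.86 to 7.93 in the liquid control. It was 8.86 to 8.97 in fh1-1 and 8.92 to 9.01 with SMIFH2. Of the 6 root markers, 3 were lower in fh1-1, 3 were higher with SMIFH2 and 5 were lower in the liquid control. Over all genes 7.78% were higher with SMIFH2 and 2.48% were lower in the liquid control. The share of all genes lower in fh1-1 is not given here. PYK10 passed in none of these comparisons (adjusted p = 0.73, 0.29 and 0.082 in limma). The mean level of the 6 was 8.87 to 9.06 on solid medium, 7.95 to 8.04 in the liquid control, 8.43 to 8.51 in fh1-1 and 8.47 to 8.52 with SMIFH2. Of the shoot markers outside the photosynthesis list, HPR, an enzyme of photorespiration, was higher in fh1-1 by 1.46 and with SMIFH2 by 1.15. SPCH, which starts the stomatal lineage, was higher in fh1-1 by 1.13 but did not pass with SMIFH2 (0.51, adjusted p = 0.11 in limma) or in the liquid control (0.58, adjusted p = 0.12). YAB2, a transcription factor of the leaf blade, passed in the liquid control alone (0.88) and gave 0.36 in fh1-1 and -0.34 with SMIFH2 (adjusted p = 0.26 and 0.33). The part of organ shares in the levels of the loci was not tested. In pools of whole seedlings, fewer cells of a type and less RNA per cell cannot be told apart.

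**Figure D5:**
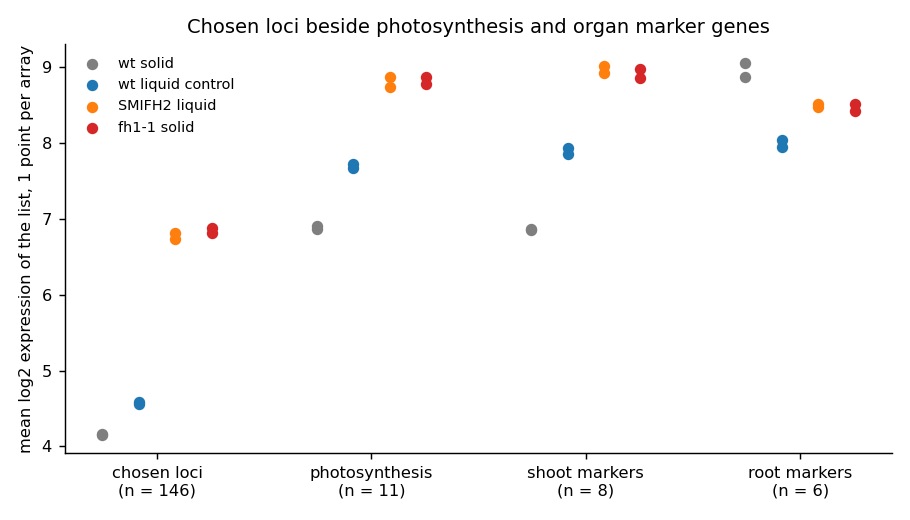
Mean log2 level of the 146 chosen loci, 11 photosynthesis genes, 8 shoot markers and 6 root markers in each array, 1 point per array, coloured by group. In the first 3 sets the order is the solid control, liquid control, then SMIFH2 and fh1-1 together. In the root markers the solid control is highest and the liquid control lowest. The level of one set is not comparable with that of another.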

How the data were processed

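The deposited values are log2 expression values made by the authors with RMA in Affymetrix Expression Console 1.4, per the submitters' processing notes. In RMA the background is corrected, arrays are normalized jointly and probes are combined per probe set. The table held 38408 probe sets on 8 arrays. The annotation listed 17504 of them, 758 with several genes, and 16746 with 1 gene covered 16554 genes, each represented by its brightest probe set. Each of the 146 loci had 1 such probe set and was matched by Entrez ID to RefSeq (TAIR10.1), used for names and neighbours. Gene descriptions and sequences were not used here, so the parts of the naming rule that need them were not applied.

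Groups were compared in limma 3.58.1 (R 4.3.3), fitted to the 8 arrays together, with 4 residual and 5.81 prior degrees of freedom and Benjamini-Hochberg adjustment over 16554 genes. The number of arrays limits the precision. The arrays of a group are separate seedling pools described as biological replicates. Limma's steps were tested on simulated data. Loci named in the text are the 12 with the largest sum of both differences, the 6 with the highest mean, the 5 largest rises and falls past the threshold in each comparison other than the 2 of the rule, 3 on each side of the rule, and direct neighbours. The members, lists and tests were chosen with earlier results of these data known. Alternatives were other sample sets, normalizations, filters, priors and probe-set rules, the repeat number as a block, and omission of each array, which leaves 1 array in its group that is assumed to vary like the others. Figures were drawn with matplotlib 3.10.9.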

Additional observations from a re-analysis of the deposited data

Results flagged for a closer look

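In 8 of the loci the rise under SMIFH2 differed from the rise in fh1-1 past limma's threshold for the difference itself. That difference is made of the differences that chose the loci, so the values are a description and support nothing. The differences, SMIFH2 effect minus fh1-1 effect on the log2 scale, were -1.95 for AT4G04750, -1.84 for AT2G32870, -1.68 for AT5G48490, -1.63 for AT4G19530, -1.53 for AT3G62550, -1.49 for AT2G34620, -1.44 for AT1G51805 and -1.40 for AT5G44680. All 8 were higher in the liquid than in the solid control, a difference that is part of the same sum, and none passed between SMIFH2 and fh1-1. Each missed the threshold in 7 to 10 of 15 alternatives.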

How the results depend on the processing

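The number of loci that met the rule was 62 with both differences at least 2 and 217 with the lower threshold tried, and it was 144 to 161 with any single array left out, of which 137 to 144 were among the 146. Loci past the threshold between the liquid and solid controls numbered 33, against 13 with the control arrays alone, 12 over every probe set and 14 to 27 without single arrays. For the difference of effects the number was 8, against 4 with the replicate number as a block, 0 over every probe set, 18 with the trended robust prior and 0 to 7 without single arrays. A larger number of features in the adjustment and fewer arrays in the fit are part of these alternatives; for the trended prior the cause was not tested. Between SMIFH2 and fh1-1, 0 loci passed in the 16 alternatives run, and without single arrays the number was 0. The photosynthesis genes past the threshold between the controls numbered 4 without single arrays. The labels do not say that the repeat number marks a shared batch, and deviations of same-numbered arrays correlated at r = -0.055 to 0.014. With the block, 28 loci passed between the controls. Of 456 values of named loci under alternatives, 330 kept their direction and side of the threshold, 126 kept their direction but missed the threshold, and 0 reversed. With 2 arrays per group, the smallest difference past the adjusted threshold over all genes was 0.59 between the controls, 0.95 between SMIFH2 and fh1-1 and 1.13 for the difference of effects, and among the loci differences of up to 1.06, 1.12 and 1.87 did not pass.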
